A study of Mus musculus with 36 samples.

Results

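The 18 arrays described here held RNA of control (+/+) mice from 3 mutant lines, labelled stg, tg and lh, with 3 arrays per line in forebrain and 3 in cerebellum. They were 18 of the 36 arrays of the series. The other 18 held -/- mice of the same lines. The 3 +/+ groups were compared with each other in each tissue, and autosomal probe sets that differed the same way in both tissues were kept. Genes on the X and Y chromosomes were left out. These were 22 probe sets of 20 genes.

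The labels give total RNA of the forebrain or cerebellum after sacrifice, and no strain, age, sex, treatment or mouse number beyond this. They call the +/+ mice "mutant" too, and only the +/+ sign sets them apart. The symbols are used for stargazer (a change in Cacng2), tottering (Cacna1a) and lethargic (Cacnb4), and were read so here, although no label spells the names out. All 3 genes encode subunits of voltage-gated calcium channels or proteins related to them. The values were linear signals per probe set, scaled so that the mean after trimming 2% at each end was 150 on every array. Nothing states that the arrays of a group were separate mice, so p-values measure only the spread between these samples.

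Mice of separate inbred strains differ at many places in the genome, and some of these differences change how much of a transcript is made, how it is spliced or which variant is present. Such differences often show in every tissue in which the gene is expressed. A variant under an array probe can also change the signal with no change in the transcript. Control mice of a mutant line carry the background on which that line was kept, so a comparison between +/+ groups of separate lines addresses background rather than the mutation. Background and any other property that differs between the colonies cannot be told apart with this design.

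Marker genes fitted the labelled tissues. Over the +/+ arrays Gabra6, a GABA receptor subunit of cerebellar granule cells, ran from 6770 to 9170 in cerebellum and from 2.83 to 178 in forebrain. Enc1, a marker of cortex and hippocampus, ran from 4700 to 5880 in forebrain and from 120 to 179 in cerebellum. By Xist and Eif2s3y, stg+/+ held 2 female arrays and 1 male array, tg+/+ held 3 male arrays, and lh+/+ held 1 female array and 2 male arrays, in both tissues. The summed signal of 13 pituitary genes was 6480, 5350 and 910 in stg+/+ forebrain, 818, 1070 and 734 in tg+/+, and 1070, 944 and 10700 in lh+/+. The 3 high arrays were the 3 female forebrain arrays. In cerebellum the summed signal of 12 choroid plexus genes was lowest on 1 stg+/+ array, at 4050, and on 1 lh+/+ array, at 7550, against 11600 to 15100 on the others. In bulk tissue, fewer cells of a type and less RNA per cell cannot be told apart.

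Few probe sets differed between the control lines. A probe set was called at an adjusted p under 0.05 (limma, Benjamini-Hochberg over the 27022 probe sets tested). Between stg+/+ and tg+/+, 4 probe sets were called in forebrain (0.0148%) and 43 in cerebellum (0.159%). Between stg+/+ and lh+/+ there were 25 in forebrain (0.0925%) and 105 in cerebellum (0.389%). Between tg+/+ and lh+/+ there were 42 in forebrain (0.155%) and 136 in cerebellum (0.503%). Of the 20757 autosomal probe sets tested in both tissues, 2 were called the same way in both for stg against tg (0.00964%), 9 for stg against lh (0.0434%) and 18 for tg against lh (0.0867%). These are the members, and none was called in opposite directions. A further 19 pairings of a probe set with a comparison were called in both tissues and left out: 1 on the X or Y chromosome, 5 with several gene symbols and 13 with none.

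The members were chosen by this test, so the values below, and remarks that arrays did not overlap, only describe them. Any 2 of the comparisons share 1 of the 3 groups. Of 9 members for stg against lh, 6 were higher in stg, and of 18 for tg against lh, 11 were higher in tg. Both members for stg against tg were higher in stg. At the threshold, Nxpe4 lay just inside for stg against lh, with the larger of its adjusted p-values at 0.0473, and Nkain2 just outside, at 0.059 (log2 differences -1.27 in forebrain and -1.02 in cerebellum). For tg against lh, Rbm45 lay just inside at 0.0451, and Pik3r4 just outside at 0.0548 (0.89 and 1.01). For stg against tg, Tm2d2 lay inside at 0.0241 and Nkain2 outside at 0.061 (-1.19 and -1.11).

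**Figure D1:**
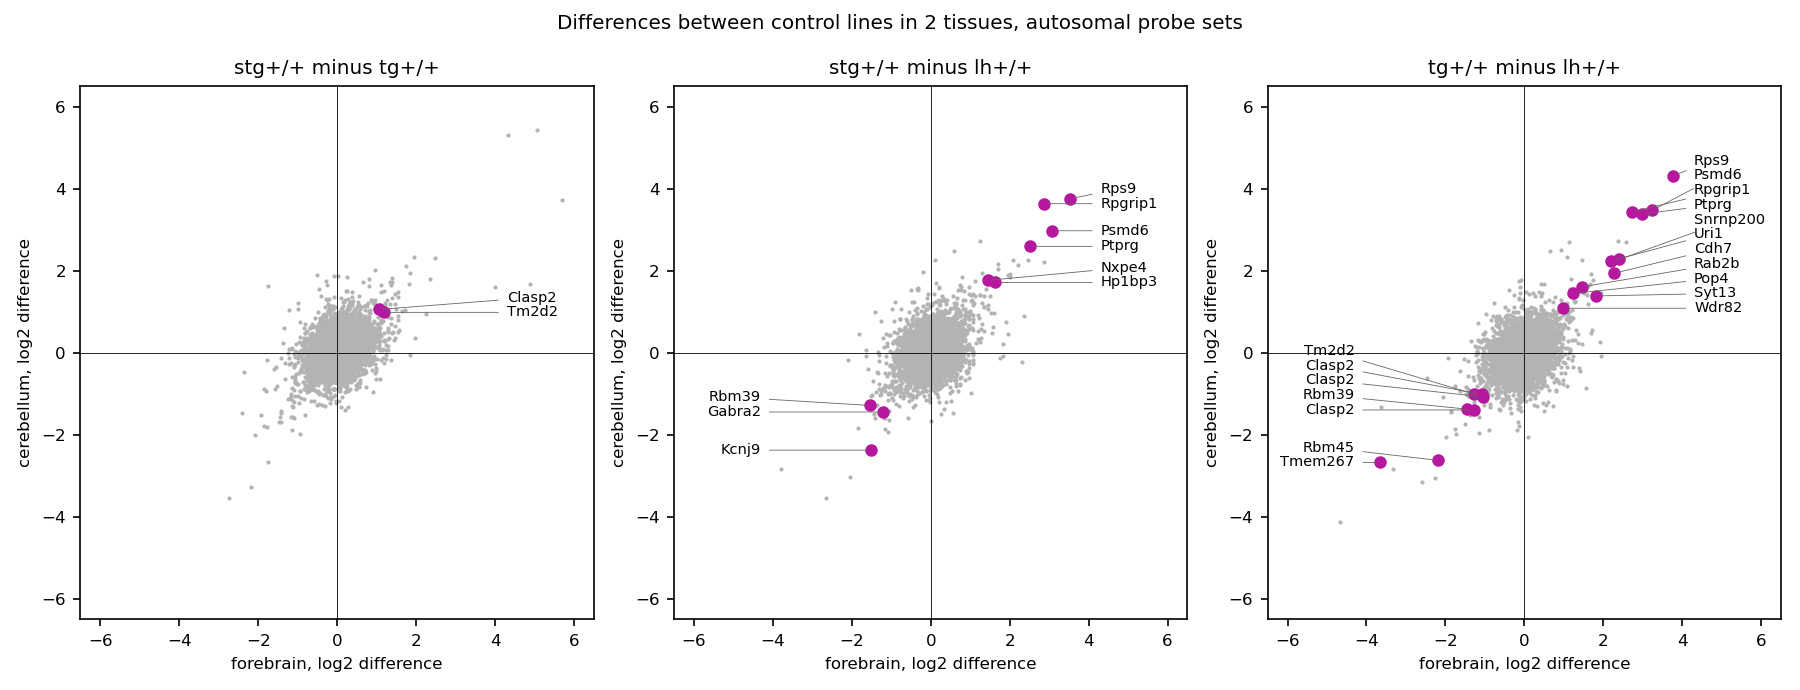
Log2 difference between +/+ lines in forebrain (x axis) against cerebellum (y axis) for the 20757 autosomal probe sets tested in both tissues, with 1 panel per pair of lines; grey points are probe sets, and purple points are the 2, 9 and 18 members with their gene symbols. Several grey points lie farther from 0 than the members, and all purple points lie in the quadrants of equal sign.

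Probe sets called in cerebellum mostly had the same sign in forebrain. Of those that were autosomal and tested in both tissues, 23 of 25, 66 of 67 and 82 of 91 had the same sign in forebrain for stg against tg, stg against lh and tg against lh. Over all autosomal probe sets tested in both, 62.4%, 58.3% and 57.8% had the same sign. With the same sign and an unadjusted p under 0.05 in forebrain there were 21, 48 and 69, against 4.23%, 3.63% and 4.17% of all. The tissues may not be independent mice, however. The labels do not say whether a forebrain and a cerebellum came from the same mouse, and most forebrain titles carry no replicate number. Forebrain arrays were numbered here by the order of records, except in stg-/-, where a title gives number 2 to the first record. In deviations from the group mean, 16 of 18 cerebellum arrays correlated best with the forebrain array of the same number. The other 2, both tg+/+, correlated best with each other's.

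The counts moved when single arrays were left out. Within forebrain, the 4 called for stg against tg became 2 without stg+/+ 3, tg+/+ 1, or lh+/+ 2 or 3, and 9 without tg+/+ 2 or lh+/+ 1. The 25 for stg against lh became 8 without stg+/+ 1, 14 without lh+/+ 2, 15 without lh+/+ 3, 38 without lh+/+ 1 and 57 without tg+/+ 2. The 42 for tg against lh became 23 without tg+/+ 1, 25 without lh+/+ 2 and 21 without lh+/+ 3. Within cerebellum, the 43 for stg against tg became 13 without tg+/+ 2, 21 without tg+/+ 3 and 65 without lh+/+ 1. The 105 for stg against lh became 69 without stg+/+ 1, 54 without stg+/+ 2 and 64 without lh+/+ 2. The 136 for tg against lh became 85, 53 and 71 without tg+/+ 1, 2 and 3, and 77 without lh+/+ 2. Called in both tissues, the 2 probe sets for stg against tg became 1 without tg+/+ forebrain 1 or 3, lh+/+ forebrain 2 or 3, or tg+/+ cerebellum 1 or 2, and 4 without tg+/+ forebrain 2 and 5 without lh+/+ forebrain 1. For stg against lh the 9 became 4 without stg+/+ forebrain 1 and 5 without lh+/+ forebrain 2 or 3. For tg against lh the 18 became 9 without tg+/+ forebrain 1 and 10 without lh+/+ forebrain 3. With sex as a term 0, 5 and 12 were called in both tissues, all of them members. Leaving out the 3 forebrain arrays with pituitary transcripts, which are the 3 female ones, left 1 stg+/+ and 2 lh+/+ forebrain arrays. In forebrain this setting and the sex term are thus not separate checks. Comparisons with stg+/+ then rest on 1 array there, and their counts are not given. For tg against lh 12 were called in both tissues, of which 10 were members. Of the 29 pairings of a probe set with a comparison, 17 kept their calls in both tissues with sex as a term. The others were both for stg against tg, then Gabra2, Hp1bp3, Kcnj9 and Nxpe4 for stg against lh, and Tmem267, Rab2b, Rbm45, Rbm39, Pop4 and 1 of 3 Clasp2 probe sets for tg against lh. With each of the 18 arrays left out in turn, 11 pairings kept both calls every time: Rpgrip1, Psmd6, Ptprg and Rps9 against lh in both comparisons, Clasp2 at 1424836_a_at in both of its comparisons, and Tm2d2 for tg against lh. Without the 3 pituitary arrays together, 10 of the 18 pairings for tg against lh kept both calls. These were Rpgrip1, Psmd6, Clasp2 at 1424836_a_at, Tmem267, Ptprg, Uri1, Rbm45, Syt13, Tm2d2 and Cdh7. The other 8 for tg against lh, Rps9 among them, lost a call, with 2 lh+/+ forebrain arrays left. Most calls with stg+/+ were lost there, Psmd6, Ptprg and Rps9 against lh among them. With 1 stg+/+ forebrain array left, a dependence on pituitary tissue cannot be told from the loss of arrays. The records list the forebrain and then the cerebellum arrays in 2 successive runs. Arrays 1 and 2 of stg+/+ and lh+/+ were in the first run and array 3 in the second. For tg+/+ array 1 was in the first and arrays 2 and 3 in the second. Array 3 was the male one in stg+/+ and the female one in lh+/+, so run and sex cannot be told apart within these lines. With the run of records as a block 23 pairings kept both calls, and Hp1bp3 and Nxpe4 for stg against lh and Snrnp200, Rab2b, Rbm45 and 1 Clasp2 probe set for tg against lh did not.

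Probe sets with large differences set lh apart from both other lines. Rps9 encodes a protein of the small ribosomal subunit. Its probe set 1434624_x_at read 1076, 862 and 795 in stg+/+, 1588, 518 and 1437 in tg+/+ and 62.7, 124 and 54.5 in lh+/+ forebrain. In cerebellum it read 838, 885 and 834 in stg+/+, 1442, 1391 and 994 in tg+/+ and 47, 78.8 and 59.4 in lh+/+. Every lh+/+ array lay under every array of the other lines. Probe sets whose name ends in _x_at hold probes that match other transcripts, and Rps9 has processed copies in the genome, so which of these the signal came from is uncertain. The signal was 11.6-fold lower in lh than in stg in forebrain and 13.5-fold lower in cerebellum (folds are taken after the constant of 2.98 is added, which shrinks them for weak signals). The log2 difference of tg minus lh was 3.76 (SE 0.38, adjusted p = 0.00156) in forebrain and 4.31 (SE 0.18, adjusted p = 1.09e-07) in cerebellum.

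Psmd6, a subunit of the 19S regulatory particle of the proteasome, showed a like pattern at 1423696_a_at. Its forebrain signals were 931, 715 and 851 in stg+/+, 1149, 532 and 1272 in tg+/+ and 104, 94.6 and 86.5 in lh+/+. The cerebellum signals were 765, 747 and 847 in stg+/+, 1134, 1136 and 1058 in tg+/+ and 84.5, 133 and 81.6 in lh+/+. All lh+/+ arrays were low, and 1 tg+/+ forebrain array, at 532, lay below the other 5 arrays of stg and tg. The log2 difference of stg minus lh was 3.08 (SE 0.26, adjusted p = 0.000614) in forebrain and 2.97 (SE 0.16, adjusted p = 1.37e-06) in cerebellum. For tg minus lh it was 3.24 (SE 0.26, adjusted p = 0.000346) and 3.47 (SE 0.16, adjusted p = 2.02e-07).

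Ptprg, a receptor-type tyrosine phosphatase, lies near Psmd6 on chromosome 14, with 5 tested genes between them. Probe set 1429691_at gave 159, 197 and 166 in stg+/+, 303, 158 and 298 in tg+/+ and 40.2, 29.7 and 17.8 in lh+/+ in forebrain, and 106, 104 and 125 in stg+/+, 226, 167 and 194 in tg+/+ and 18.6, 7.89 and 26.1 in lh+/+ in cerebellum. The groups of stg and tg did not overlap with lh in either tissue. The log2 difference of tg minus lh was 2.99 (SE 0.29, adjusted p = 0.00152) in forebrain and 3.38 (SE 0.30, adjusted p = 0.000159) in cerebellum, and that of stg minus lh was 2.51 (SE 0.29, adjusted p = 0.00618) and 2.59 (SE 0.30, adjusted p = 0.00136).

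Rpgrip1, which encodes a protein of the photoreceptor connecting cilium that binds RPGR, was low in lh at 1421144_at. It read 313, 717 and 345 in stg+/+, 487, 357 and 331 in tg+/+ and 54.1, 48.7 and 65.8 in lh+/+ in forebrain. In cerebellum the signals were 382, 863 and 401 in stg+/+, 527, 447 and 364 in tg+/+ and 38.7, 41.8 and 34.6 in lh+/+. The lh+/+ arrays stood alone at the low end, while 1 stg+/+ array was the highest in each tissue. Stg exceeded lh by 7.31-fold in forebrain and 12.4-fold in cerebellum, with log2 differences of 2.87 (SE 0.27, adjusted p = 0.00154) and 3.63 (SE 0.26, adjusted p = 2.1e-05). For tg minus lh they were 2.73 (SE 0.27, adjusted p = 0.00153) and 3.43 (SE 0.26, adjusted p = 4.75e-05). Of 4 probe sets of Rpgrip1 only this 1 was tested in both tissues, so no other could be set beside it.

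Rbm39, an RNA-binding protein that acts in splicing, was called as higher in lh in both comparisons with lh. Its probe set 1446147_at read 103, 135 and 127 in stg+/+, 128, 119 and 143 in tg+/+ and 257, 371 and 485 in lh+/+ in forebrain. It read 222, 240 and 278 in stg+/+, 203, 239 and 249 in tg+/+ and 464, 641 and 738 in lh+/+ in cerebellum. The lh+/+ arrays lay above all others in both tissues. The log2 difference of stg minus lh was -1.54 (SE 0.21, adjusted p = 0.0166) in forebrain and -1.29 (SE 0.16, adjusted p = 0.00291) in cerebellum. For tg minus lh it was -1.45 (SE 0.21, adjusted p = 0.0195) and -1.38 (SE 0.16, adjusted p = 0.00141).

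**Figure D2:**
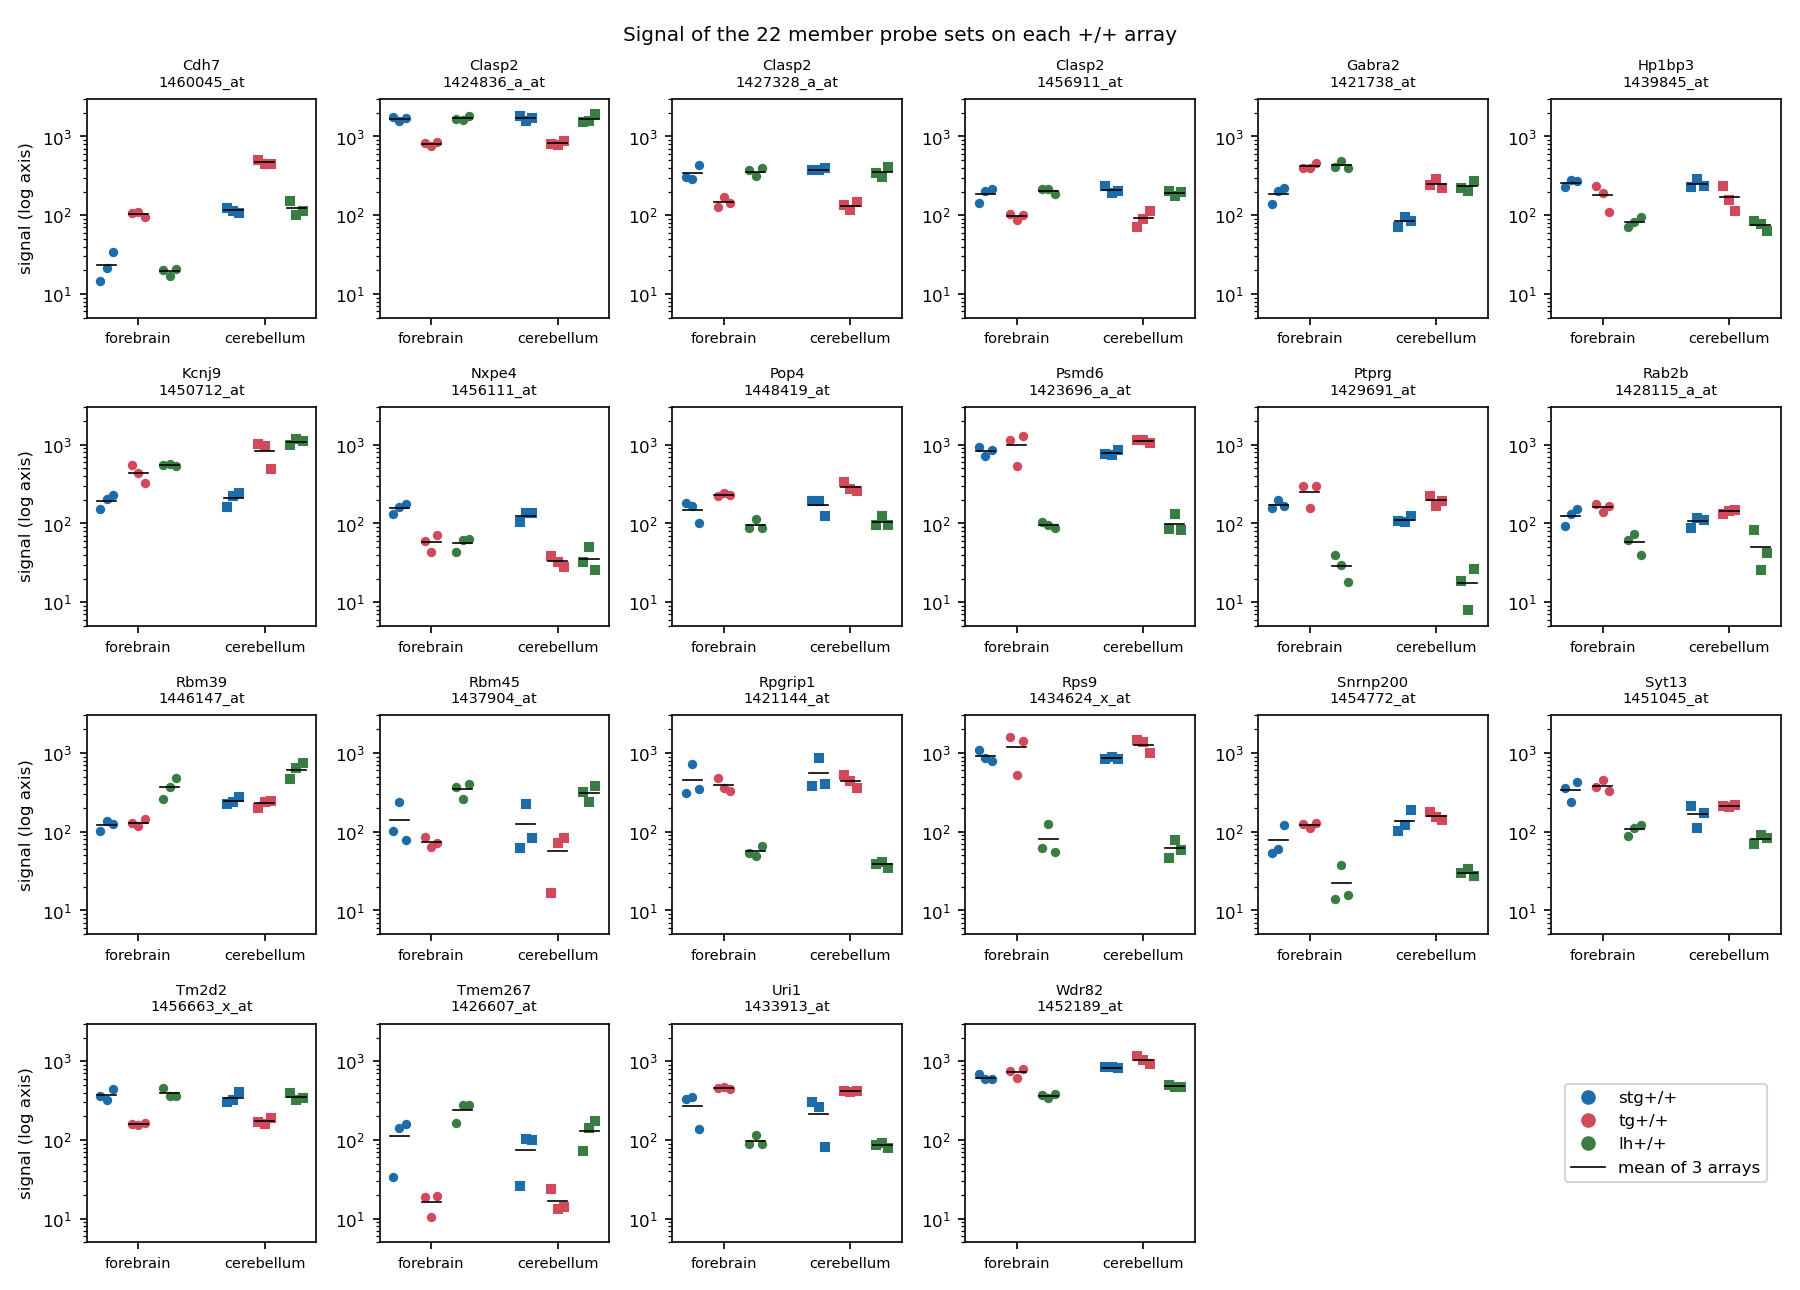
Signal on a log axis for each of the 22 member probe sets on each +/+ array, forebrain as circles on the left of a panel and cerebellum as squares on the right, coloured by line, with a black bar at the mean of 3 arrays. Rps9, Psmd6, Ptprg and Rpgrip1 are low in lh+/+, and Clasp2 and Tm2d2 are low in tg+/+.

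Clasp2 and Tm2d2 each had a probe set that set tg apart from both other lines. Clasp2 encodes a protein that binds and stabilises the growing ends of microtubules, with roles in neurite growth. At 1424836_a_at the forebrain signals were 1755, 1565 and 1711 in stg+/+, 828, 751 and 841 in tg+/+ and 1672, 1627 and 1809 in lh+/+. In cerebellum they were 1823, 1574 and 1709 in stg+/+, 812, 779 and 877 in tg+/+ and 1521, 1591 and 1918 in lh+/+. All tg+/+ arrays lay between 751 and 877 and all others at 1521 or above. The log2 difference of stg minus tg was 1.05 (SE 0.10, adjusted p = 0.00602) in forebrain and 1.05 (SE 0.11, adjusted p = 0.0014) in cerebellum, and that of tg minus lh was -1.08 (SE 0.10, adjusted p = 0.0012) and -1.02 (SE 0.11, adjusted p = 0.000582).

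Another pair of Clasp2 probe sets was called for tg against lh. The first, 1427328_a_at, read 305, 290 and 431 in stg+/+, 127, 169 and 144 in tg+/+ and 372, 314 and 392 in lh+/+ in forebrain and 372, 371 and 395 in stg+/+, 134, 115 and 147 in tg+/+ and 348, 308 and 407 in lh+/+ in cerebellum. The other, 1456911_at, read 141, 204 and 215 in stg+/+, 104, 88.1 and 101 in tg+/+ and 215, 213 and 185 in lh+/+ in forebrain and 236, 192 and 205 in stg+/+, 70, 89.4 and 114 in tg+/+ and 206, 177 and 196 in lh+/+ in cerebellum. The tg+/+ arrays were the lowest at both. For 1427328_a_at, tg minus lh was -1.28 (SE 0.17, adjusted p = 0.0123) in forebrain and -1.40 (SE 0.13, adjusted p = 0.00027) in cerebellum, and for 1456911_at it was -1.05 (SE 0.17, adjusted p = 0.043) and -1.08 (SE 0.17, adjusted p = 0.0134).

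Tm2d2 encodes a small membrane protein with a TM2 domain. Probe set 1456663_x_at gave 358, 319 and 440 in stg+/+, 159, 154 and 163 in tg+/+ and 454, 358 and 365 in lh+/+ in forebrain. It gave 305, 325 and 409 in stg+/+, 170, 159 and 192 in tg+/+ and 399, 324 and 339 in lh+/+ in cerebellum. The tg+/+ arrays lay under all others in both tissues. Stg minus tg was 1.20 (SE 0.15, adjusted p = 0.0241) in forebrain and 0.98 (SE 0.14, adjusted p = 0.0132) in cerebellum, and tg minus lh was -1.28 (SE 0.15, adjusted p = 0.00439) and -1.01 (SE 0.14, adjusted p = 0.00441). Neither member for stg against tg kept both calls with sex as a term (Clasp2 forebrain adjusted p = 0.0539, Tm2d2 forebrain adjusted p = 0.0539). For tg against lh Tm2d2 and Clasp2 at 1424836_a_at and 1427328_a_at kept them, and 1456911_at had adjusted p = 0.0546 in forebrain. The name of the Tm2d2 probe set also ends in _x_at. None of the 7 other tested probe sets of Tm2d2 was called in either comparison.

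The other members were called in 1 comparison each. Gabra2 encodes the alpha 2 subunit of the GABA-A receptor, which carries fast inhibition. Its probe set 1421738_at read 139, 205 and 219 in stg+/+, 400, 400 and 457 in tg+/+ and 409, 489 and 394 in lh+/+ in forebrain. It read 70, 95.8 and 84.6 in stg+/+, 244, 289 and 223 in tg+/+ and 221, 206 and 273 in lh+/+ in cerebellum. The stg+/+ arrays were the lowest in both tissues, and tg lay with lh. Stg minus lh was -1.21 (SE 0.17, adjusted p = 0.0212) in forebrain and -1.45 (SE 0.16, adjusted p = 0.00111) in cerebellum.

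Kcnj9 encodes GIRK3, a subunit of potassium channels opened by G proteins. At 1450712_at the signals were 151, 203 and 228 in stg+/+, 552, 436 and 325 in tg+/+ and 553, 564 and 529 in lh+/+ in forebrain, and 164, 226 and 243 in stg+/+, 1007, 968 and 496 in tg+/+ and 1005, 1175 and 1106 in lh+/+ in cerebellum. The stg+/+ arrays again were the lowest. Stg minus lh was -1.51 (SE 0.19, adjusted p = 0.0142) in forebrain and -2.38 (SE 0.23, adjusted p = 0.000359) in cerebellum. With sex as a term the forebrain values of Gabra2 and Kcnj9 had adjusted p = 0.0617 and adjusted p = 0.0505, and neither was called there.

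Cdh7, a cadherin that joins cells, was high in tg at 1460045_at, with 14.8, 21.6 and 34.4 in stg+/+, 107, 110 and 95.1 in tg+/+ and 20.3, 16.8 and 21 in lh+/+ in forebrain, and 124, 114 and 108 in stg+/+, 506, 447 and 453 in tg+/+ and 152, 101 and 114 in lh+/+ in cerebellum. The tg+/+ arrays lay above all others in both tissues. The difference of tg minus lh was 2.26 (SE 0.29, adjusted p = 0.00799) in forebrain and 1.93 (SE 0.15, adjusted p = 7.47e-05) in cerebellum. Stg minus tg was -2.08 in forebrain and -2.0 in cerebellum and missed the threshold in forebrain, with adjusted p = 0.0637.

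Syt13, a synaptotagmin of the vesicle trafficking family, read 356, 240 and 426 in stg+/+, 375, 451 and 331 in tg+/+ and 89.5, 110 and 123 in lh+/+ at 1451045_at in forebrain. In cerebellum it read 214, 112 and 173 in stg+/+, 213, 209 and 218 in tg+/+ and 69.6, 90.8 and 82.2 in lh+/+. The lh+/+ arrays were low, and stg spread between lh and tg in cerebellum. Between tg and lh the difference was 1.82 (SE 0.21, adjusted p = 0.00439) in forebrain and 1.38 (SE 0.20, adjusted p = 0.00803) in cerebellum.

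Snrnp200 encodes a helicase of the U5 particle of the spliceosome. Probe set 1454772_at read 53.4, 59.9 and 123 in stg+/+, 125, 111 and 128 in tg+/+ and 13.8, 38.1 and 15.8 in lh+/+ in forebrain and 103, 122 and 191 in stg+/+, 180, 152 and 142 in tg+/+ and 30.3, 33.4 and 27.3 in lh+/+ in cerebellum. The lh+/+ arrays lay under all others, and tg minus lh was 2.40 (SE 0.36, adjusted p = 0.023) in forebrain and 2.27 (SE 0.22, adjusted p = 0.000278) in cerebellum.

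Rbm45, an RNA-binding protein, was the reverse at 1437904_at, with 103, 238 and 78.3 in stg+/+, 85, 63.8 and 71.4 in tg+/+ and 374, 263 and 399 in lh+/+ in forebrain, and 62.7, 227 and 83.5 in stg+/+, 16.8, 71.4 and 82.3 in tg+/+ and 321, 235 and 380 in lh+/+ in cerebellum. The lh+/+ arrays were the highest, and 1 stg+/+ array, at 238 in forebrain and 227 in cerebellum, lay close to them. The tg minus lh difference was -2.18 (SE 0.33, adjusted p = 0.023) in forebrain and -2.63 (SE 0.52, adjusted p = 0.0451) in cerebellum.

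Wdr82, a subunit of complexes that methylate histone H3 at lysine and of a phosphatase complex acting on RNA polymerase, read 680, 586 and 588 in stg+/+, 762, 614 and 798 in tg+/+ and 368, 340 and 385 in lh+/+ at 1452189_at in forebrain. It read 834, 840 and 810 in stg+/+, 1150, 1025 and 915 in tg+/+ and 502, 467 and 477 in lh+/+ in cerebellum. The lh+/+ arrays were the lowest, though the difference was modest. Set against lh, tg differed by 0.98 (SE 0.13, adjusted p = 0.00901) in forebrain and 1.08 (SE 0.10, adjusted p = 0.00022) in cerebellum.

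Hp1bp3, a histone H1-related protein of heterochromatin, gave 226, 279 and 274 in stg+/+, 238, 190 and 110 in tg+/+ and 70.2, 83 and 95.2 in lh+/+ at 1439845_at in forebrain and 230, 289 and 236 in stg+/+, 235, 155 and 114 in tg+/+ and 85.5, 76.3 and 63 in lh+/+ in cerebellum. The stg and lh arrays did not overlap, and tg spread from one to the other. Stg minus lh was 1.62 (SE 0.24, adjusted p = 0.0369) in forebrain and 1.71 (SE 0.23, adjusted p = 0.00382) in cerebellum.

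Tmem267, a membrane protein of little known function, read 33.9, 141 and 161 in stg+/+, 18.7, 10.5 and 19.5 in tg+/+ and 166, 274 and 282 in lh+/+ at 1426607_at in forebrain. In cerebellum it read 25.7, 102 and 98.7 in stg+/+, 23.5, 13.3 and 14 in tg+/+ and 72, 143 and 172 in lh+/+. The tg+/+ arrays were the lowest, and 1 stg+/+ array in each tissue lay near them. The difference of tg minus lh was -3.66 (SE 0.47, adjusted p = 0.00801) in forebrain and -2.68 (SE 0.46, adjusted p = 0.0199) in cerebellum. The cerebellum call was lost with sex as a term (adjusted p = 0.0532).

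Nxpe4, a member of the neurexophilin and PC-esterase family, read 131, 160 and 176 in stg+/+, 60.4, 43.1 and 70.8 in tg+/+ and 43.5, 61.8 and 62.9 in lh+/+ at 1456111_at in forebrain, and 104, 134 and 136 in stg+/+, 38.9, 32.8 and 27.9 in tg+/+ and 32, 50.1 and 25.4 in lh+/+ in cerebellum. The stg+/+ arrays were higher than all others, and tg lay with lh. Stg minus lh was 1.44 (SE 0.23, adjusted p = 0.0473) in forebrain and 1.76 (SE 0.26, adjusted p = 0.00953) in cerebellum.

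Members lay near other members on 3 stretches of the genome. On chromosome 7, Uri1 and Pop4 had 3 tested genes between them. On chromosome 14, Rpgrip1 and Rab2b had 2 tested genes between them, and Ptprg and Psmd6 had 5. All these neighbours moved the same way for tg against lh. The starts lay within 1 Mb of each other for Uri1 and Pop4 and for Rpgrip1 and Rab2b, but not for Ptprg and Psmd6. The promoters of the first 4 genes are shown, from 250 bases before to 50 after the annotated start. They come from RefSeq on GRCm38.p6, the reference assembly, and are not the sequence of these mice. Uri1 is at chr7:38019503-38019802 (minus strand), Pop4 at chr7:38271299-38271598 (minus strand), Rpgrip1 at chr14:52110653-52110952 (plus strand) and Rab2b at chr14:52279346-52279645 (minus strand). Capitals mark matches on either strand to a CCAAT box (CCAAT), a GC box (GGGCGG) or a TATA box (TATAAA).
Uri1: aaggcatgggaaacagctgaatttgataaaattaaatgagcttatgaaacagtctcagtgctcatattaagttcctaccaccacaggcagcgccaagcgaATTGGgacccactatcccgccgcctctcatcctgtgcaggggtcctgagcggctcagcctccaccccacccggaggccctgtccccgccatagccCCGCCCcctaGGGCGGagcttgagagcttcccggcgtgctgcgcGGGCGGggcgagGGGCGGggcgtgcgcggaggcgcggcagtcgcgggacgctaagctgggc
Pop4: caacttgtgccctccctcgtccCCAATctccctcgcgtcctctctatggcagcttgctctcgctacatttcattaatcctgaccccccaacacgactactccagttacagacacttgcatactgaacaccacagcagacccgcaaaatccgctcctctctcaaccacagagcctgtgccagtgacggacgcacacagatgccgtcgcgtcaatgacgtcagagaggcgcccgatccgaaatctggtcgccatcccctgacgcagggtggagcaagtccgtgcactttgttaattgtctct
Rpgrip1: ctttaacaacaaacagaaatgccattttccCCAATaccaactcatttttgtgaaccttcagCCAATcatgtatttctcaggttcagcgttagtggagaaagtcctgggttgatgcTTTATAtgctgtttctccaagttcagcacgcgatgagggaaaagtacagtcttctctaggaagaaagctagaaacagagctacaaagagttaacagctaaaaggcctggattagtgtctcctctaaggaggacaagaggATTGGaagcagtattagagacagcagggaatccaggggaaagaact
Rab2b: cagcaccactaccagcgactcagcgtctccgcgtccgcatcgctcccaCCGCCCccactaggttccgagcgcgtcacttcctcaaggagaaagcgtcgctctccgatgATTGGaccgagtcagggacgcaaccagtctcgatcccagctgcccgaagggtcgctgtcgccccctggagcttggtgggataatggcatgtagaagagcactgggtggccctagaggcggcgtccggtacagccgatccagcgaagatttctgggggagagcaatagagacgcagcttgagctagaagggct
In these windows Uri1 held 1 CCAAT box and 4 GC boxes, Pop4 held 1 CCAAT box, Rpgrip1 held 3 CCAAT boxes and 1 TATA box, and Rab2b held 1 CCAAT box and 1 GC box. No match overlapped another. Of 32851 promoters of this length, 37.4% held a CCAAT box, 35.7% a GC box and 13.6% a TATA box. An E-box (CACGTG) was found in none of the 4 and in 7.15% of all. The matches are a description of the letters only.

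Uri1 encodes a prefoldin-like chaperone that binds an RNA polymerase subunit, and Pop4 a protein subunit of RNase P, which trims transfer RNA. Probe set 1433913_at of Uri1 read 329, 351 and 139 in stg+/+, 453, 473 and 440 in tg+/+ and 88.2, 116 and 89.8 in lh+/+ in forebrain. In cerebellum it read 300, 262 and 82.4 in stg+/+, 416, 406 and 416 in tg+/+ and 86.9, 90.4 and 79.8 in lh+/+. Probe set 1448419_at of Pop4 read 180, 165 and 102 in stg+/+, 223, 243 and 227 in tg+/+ and 87.9, 114 and 87.6 in lh+/+ in forebrain and 192, 193 and 126 in stg+/+, 337, 271 and 261 in tg+/+ and 95.5, 124 and 95.2 in lh+/+ in cerebellum. At both genes tg was highest, lh lowest, and stg between them, with 1 stg+/+ array in each tissue near or within the lh range. For tg minus lh, Uri1 gave 2.19 (SE 0.28, adjusted p = 0.00799) in forebrain and 2.23 (SE 0.34, adjusted p = 0.0111) in cerebellum, and Pop4 gave 1.24 (SE 0.20, adjusted p = 0.0417) and 1.44 (SE 0.18, adjusted p = 0.00271). Zfp939, another neighbour and not a member, had tg minus lh differences of 2.18 (adjusted p = 0.145) and 2.0 (adjusted p = 0.0236).

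Rab2b, a small GTPase of Golgi traffic, read 93.2, 131 and 151 in stg+/+, 176, 141 and 166 in tg+/+ and 61.9, 74.3 and 39.6 in lh+/+ at 1428115_a_at in forebrain, and 87.6, 119 and 111 in stg+/+, 133, 146 and 149 in tg+/+ and 83, 25.3 and 42.1 in lh+/+ in cerebellum. The lh+/+ arrays were the lowest in both tissues. Between tg and lh the difference was 1.45 (SE 0.24, adjusted p = 0.042) in forebrain and 1.60 (SE 0.31, adjusted p = 0.0396) in cerebellum. This was the member that was lost most often when 1 array was left out: it was called in both tissues in 3 of 18 such fits.

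The 20 genes lay on 9 of 19 autosomes. Chromosomes 2 and 14 held 4 each, of 938 and 407 tested genes, and chromosomes 7 and 9 held 3 each, of 886 and 667. Counting the 10 tested genes on each side of each member, 15 of 311 were called for tg against lh in at least 1 tissue (4.82%), against 0.796% of all tested autosomal genes. For stg against lh 7 of 177 were (3.95%), against 0.575%. For stg against tg 0 of 40 were, against 0.203%. Around Kcnj9, Fmn2, Mndal and Pex19 were called for stg against lh, and around Wdr82, Mrpl3, Pik3r4 and Ppm1m for tg against lh. Neighbours that are members themselves are included, and windows of neighbouring members overlap. The 15 include the members Uri1, Pop4, Ptprg, Psmd6, Rab2b and Rpgrip1, and count Zfp939 both for Uri1 and for Pop4. The 7 include Psmd6 and Ptprg. The rule that chose the members thus enters these shares, and a share without members was not computed. Of the genes changed in the lines, Cacng2 lies on chromosome 15, which held no member, Cacna1a on chromosome 8 with Tm2d2, 240 tested genes away, and Cacnb4 on chromosome 2 with 4 members, the nearest being Rbm45 at 72 tested genes.

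For most genes 1 probe set was called in both tissues. An array of this kind carries several probe sets for many genes, which can read separate stretches of the transcript. Of 27 pairings of a gene with a comparison, 20 had other probe sets tested in both tissues, counting as other those that were not members. Clasp2 for tg against lh had 3 members among 4 probe sets tested in both tissues. In 3 pairings a probe set that was no member was called in the same direction in at least 1 tissue: Clasp2 for stg against tg, Gabra2 and Kcnj9. Of the 67 other probe sets in the 20 pairings, 5 were called in the member's direction and 4 against it.

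Gabra2 had 2 further tested probe sets. For stg minus lh, 1443865_at gave -1.16 in forebrain (adjusted p = 0.0165) and -0.84 in cerebellum (adjusted p = 0.205), and 1455444_at gave -1.05 (adjusted p = 0.181) and -0.98 (adjusted p = 0.0343). Kcnj9 had 1426115_a_at, at -1.08 in forebrain (adjusted p = 0.258) and -1.94 in cerebellum (adjusted p = 0.00291), while 1428602_at gave 0.36 and -0.19. All the differences of Gabra2 thus had the sign of its member.

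The other probe set of Psmd6 gave -0.06 and -0.11 for stg minus lh, where the member gave 3.08 and 2.97. The 2 other probe sets of Rps9 gave -0.25 to -0.18 in forebrain and -0.14 to 0.33 in cerebellum. For Ptprg 3 others gave -0.04 to 0.19 and -0.21 to 0.31. For tg minus lh, the others of Rab2b (4 probe sets) gave -0.09 to 0.14 and -0.11 to 0.20, those of Uri1 (2) 0.18 to 0.36 and 0.17 to 0.43, that of Snrnp200 0.30 and 0.08, and that of Syt13 0.35 and -0.01. The 7 others of Tm2d2 gave -0.05 to 0.51 and -0.12 to 0.44 for stg minus tg. For tg minus lh they gave -0.36 to 0.02 and -0.71 to 0.04. Those of Cdh7 (2) gave -0.44 to 0.88 and -0.24 to 0.36 for tg minus lh. That of Hp1bp3 gave 0.36 and 0.26 for stg minus lh. The differences at these genes were thus called at 1 probe set. What those probe sets read that the others do not was not tested, and probe sequences were not used here.

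Rbm39 had 11 other tested probe sets. Its member was higher in lh, but 3 others were higher in stg than in lh in cerebellum: 1438398_at by 1.52 (adjusted p = 0.00158), 1456386_at by 0.99 (adjusted p = 0.0214) and 1438397_a_at by 0.60 (adjusted p = 0.0343). For tg minus lh, 1438398_at gave 1.29 in cerebellum (adjusted p = 0.00485). Probe set 1446148_x_at had the sign of the member, at -1.17 (adjusted p = 0.629) and -0.79 (adjusted p = 0.163) for stg minus lh and -1.64 (adjusted p = 0.191) and -0.94 (adjusted p = 0.0668) for tg minus lh, and was not called. The probe sets of this gene therefore did not move together, and the forebrain values of the 3 that opposed the member were not called.

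**Figure D3:**
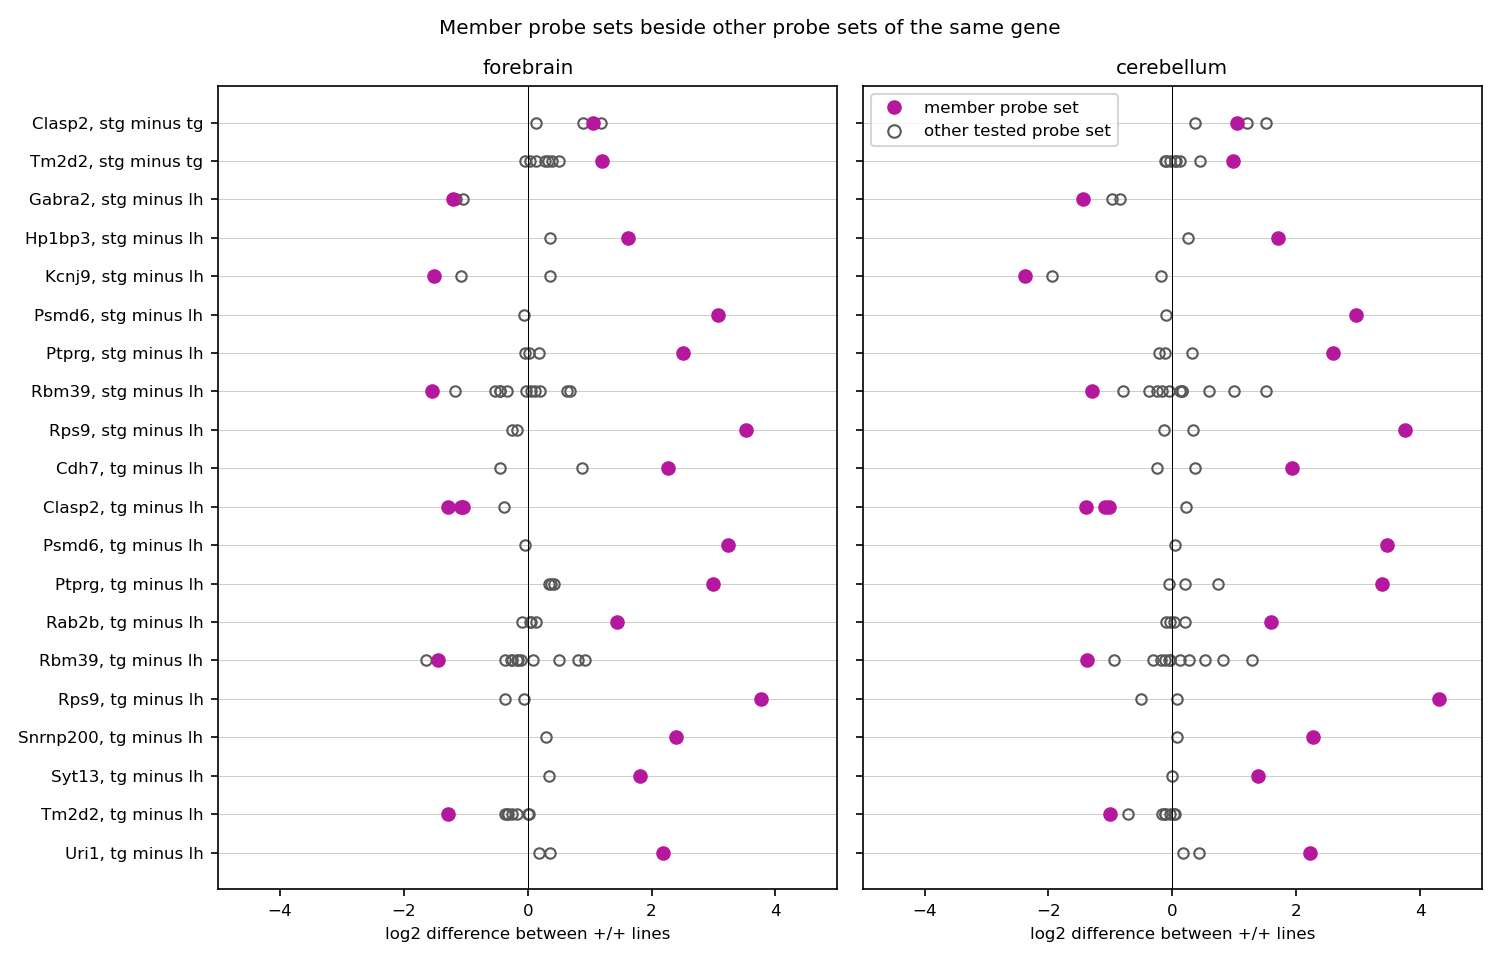
Log2 difference between +/+ lines (x axis) in forebrain (left) and cerebellum (right) for each pairing of a gene with a comparison that has other tested probe sets; purple points are members and open points the other probe sets of the same gene. Open points lie near 0 for most genes, and near the purple points for Gabra2 and for 2 of 3 open points of Clasp2 in stg minus tg. Open points of Kcnj9 (1426115_a_at) and Rbm39 (1446148_x_at) also lie toward the purple ones. Others of Rbm39 lie on the opposite side, up to 1.52 in cerebellum for stg minus lh.

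The -/- arrays gave a second set of mice in which the members could be read, since the rule did not use them. In these arrays 17 of 20797 autosomal probe sets were called the same way in both tissues for stg against tg (0.0817%), 28 for stg against lh (0.135%) and 54 for tg against lh (0.26%). Of the members, 1 of 2, 3 of 9 and 10 of 18 were among them with the same direction. That is 5.88%, 10.7% and 18.5% of the -/- calls. By sign alone in both tissues, 1 of 2, 9 of 9 and 16 of 18 members agreed between +/+ and -/-. Over all autosomal probe sets with the same sign in both +/+ tissues, 39.3%, 38.6% and 52.2% did. Each -/- group also carries the mutation of its line, so these differences are not of background alone. By Xist and Eif2s3y, each -/- group also held as many females and males as the +/+ group of its line. Its arrays were spread over the runs of records in the same way. The -/- arrays are therefore not a separate check on sex or on the run of records.

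Clasp2 was called in -/- mice in every comparison in which it was a member. At 1424836_a_at the -/- forebrain signals were 1708, 1637 and 1849 in stg-/-, 811, 833 and 894 in tg-/- and 1578, 1388 and 1805 in lh-/-, and the cerebellum signals were 1646, 1524 and 1536 in stg-/-, 754, 971 and 799 in tg-/- and 1600, 1698 and 1998 in lh-/-. As in the +/+ mice, all tg arrays lay under all others. Stg minus tg was 1.03 (adjusted p = 0.000517) in forebrain and 0.90 (adjusted p = 0.00201) in cerebellum.

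Others called in both -/- tissues were Hp1bp3, Rbm39 and Nxpe4 for stg against lh, and Rps9, Rbm39, Rbm45, Syt13, Wdr82, Snrnp200 and Cdh7 for tg against lh. The Cdh7 signals were 41.1, 55.3 and 44.9 in stg-/-, 123, 104 and 107 in tg-/- and 30.1, 20.5 and 25.2 in lh-/- in forebrain and 316, 270 and 322 in stg-/-, 410, 454 and 562 in tg-/- and 118, 105 and 108 in lh-/- in cerebellum. The tg-/- arrays were the highest, while stg-/- lay above stg+/+. Tg minus lh in -/- mice was 2.02 (adjusted p = 0.000743) in forebrain and 2.07 (adjusted p = 6.47e-05) in cerebellum. The difference of the stg groups was not tested here.

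Tm2d2 and Tmem267 turned the other way. Tm2d2 read 346, 350 and 176 in stg-/-, 424, 437 and 470 in tg-/- and 478, 373 and 324 in lh-/- in -/- forebrain and 298, 338 and 171 in stg-/-, 447, 417 and 514 in tg-/- and 472, 328 and 306 in lh-/- in -/- cerebellum, so the tg-/- arrays were high where the tg+/+ arrays had been low. Stg minus tg was -0.67 (adjusted p = 0.448) in forebrain and -0.82 (adjusted p = 0.105) in cerebellum. Tmem267 read 176, 263 and 148 in stg-/-, 317, 204 and 249 in tg-/- and 19.9, 243 and 30 in lh-/- in -/- forebrain and 92.3, 140 and 81.7 in stg-/-, 177, 126 and 105 in tg-/- and 28.8, 129 and 24.8 in lh-/- in -/- cerebellum. Here tg-/- was high, and 2 of 3 lh-/- arrays in each tissue were nearly as low as tg+/+. Tg minus lh was 2.16 (adjusted p = 0.171) in forebrain and 1.48 (adjusted p = 0.159) in cerebellum.

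Gabra2, Kcnj9 and Nxpe4 also differed between the +/+ and -/- mice of tg. Gabra2 read 129, 147 and 124 in tg-/- forebrain and 47.7, 69.5 and 79.6 in cerebellum, below all tg+/+ arrays. Kcnj9 read 200, 189 and 233 in forebrain and 173, 260 and 234 in cerebellum, also below them. Nxpe4 read 218, 200 and 158 in forebrain and 181, 140 and 127 in cerebellum, above them. At all 3 genes the tg-/- arrays lay on the side of stg, whereas the tg+/+ arrays lay on the side of lh. This was noticed after the values were seen, and the difference between +/+ and -/- within a line was not tested here.

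**Figure D4:**
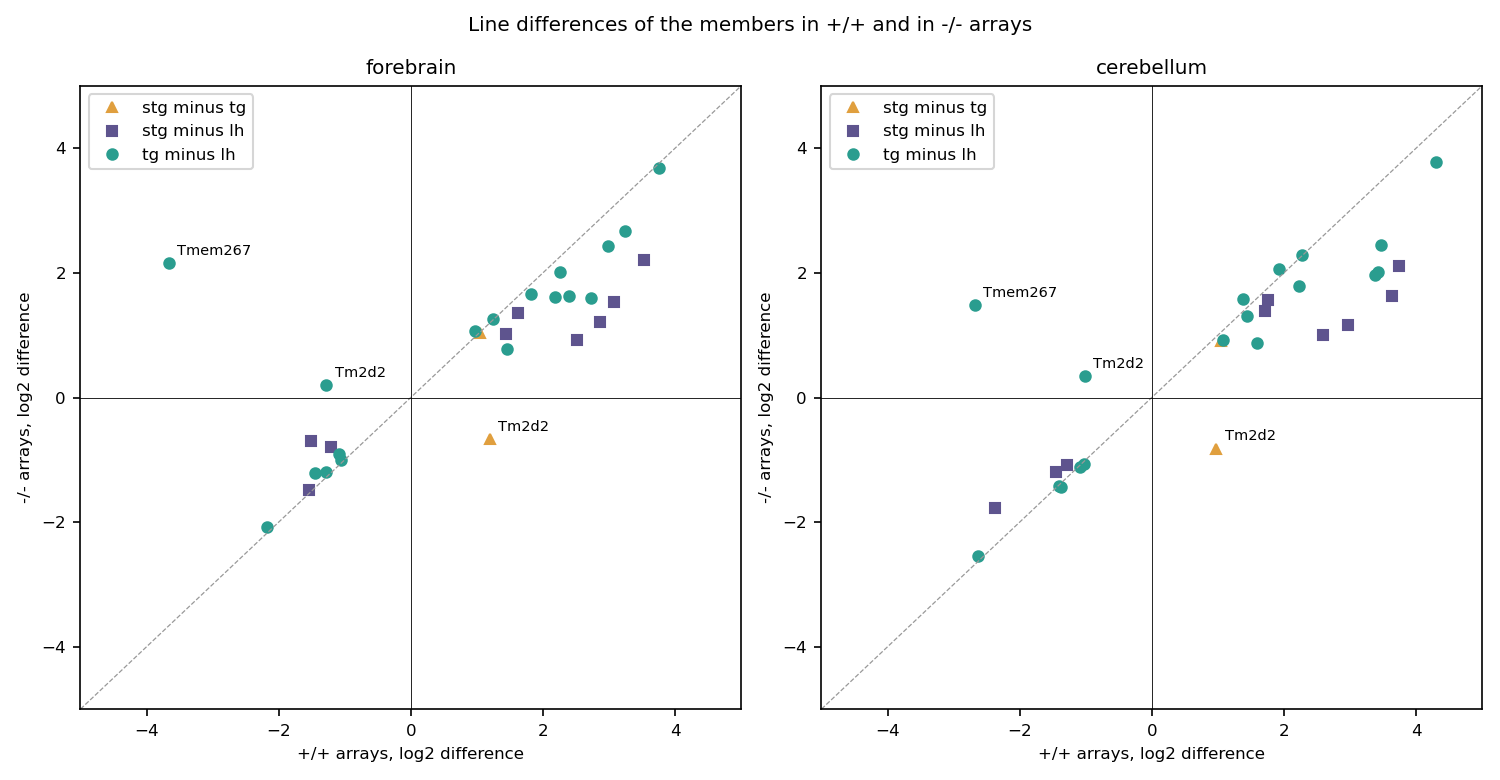
Log2 difference between lines in +/+ arrays (x axis) against -/- arrays (y axis) for the members, forebrain on the left and cerebellum on the right, with marker shape for the pair of lines and a dashed line of equality. Tm2d2 and Tmem267 lie in the quadrants of opposite sign, and the other members lie in those of equal sign.

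Single -/- arrays fell on the level of another line. Psmd6 read 1166, 114 and 1107 in stg-/-, 1245, 1207 and 1051 in tg-/- and 830, 93.2 and 74.6 in lh-/- in -/- forebrain. In -/- cerebellum it read 980, 86 and 909 in stg-/-, 1090, 1171 and 910 in tg-/- and 673, 141 and 70.3 in lh-/-. In each tissue 1 stg-/- array was near the lh+/+ level and 1 lh-/- array near the stg+/+ level. Ptprg, its neighbour, read 279, 13.2 and 232 in stg-/-, 295, 322 and 246 in tg-/- and 188, 25.8 and 25 in lh-/- in forebrain and 173, 20.3 and 185 in stg-/-, 175, 184 and 162 in tg-/- and 107, 23.9 and 28.5 in lh-/- in cerebellum, with the same arrays low and high. Rps9 on chromosome 7 was low on that stg-/- array as well, at 87.4 in forebrain and 84.9 in cerebellum. Rpgrip1 was high on 2 of 3 lh-/- arrays, with 355, 364 and 62.7 in forebrain and 405, 419 and 33.8 in cerebellum. The levels at these genes were thus not shared by all arrays that carry a line's label.

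**Figure D5:**
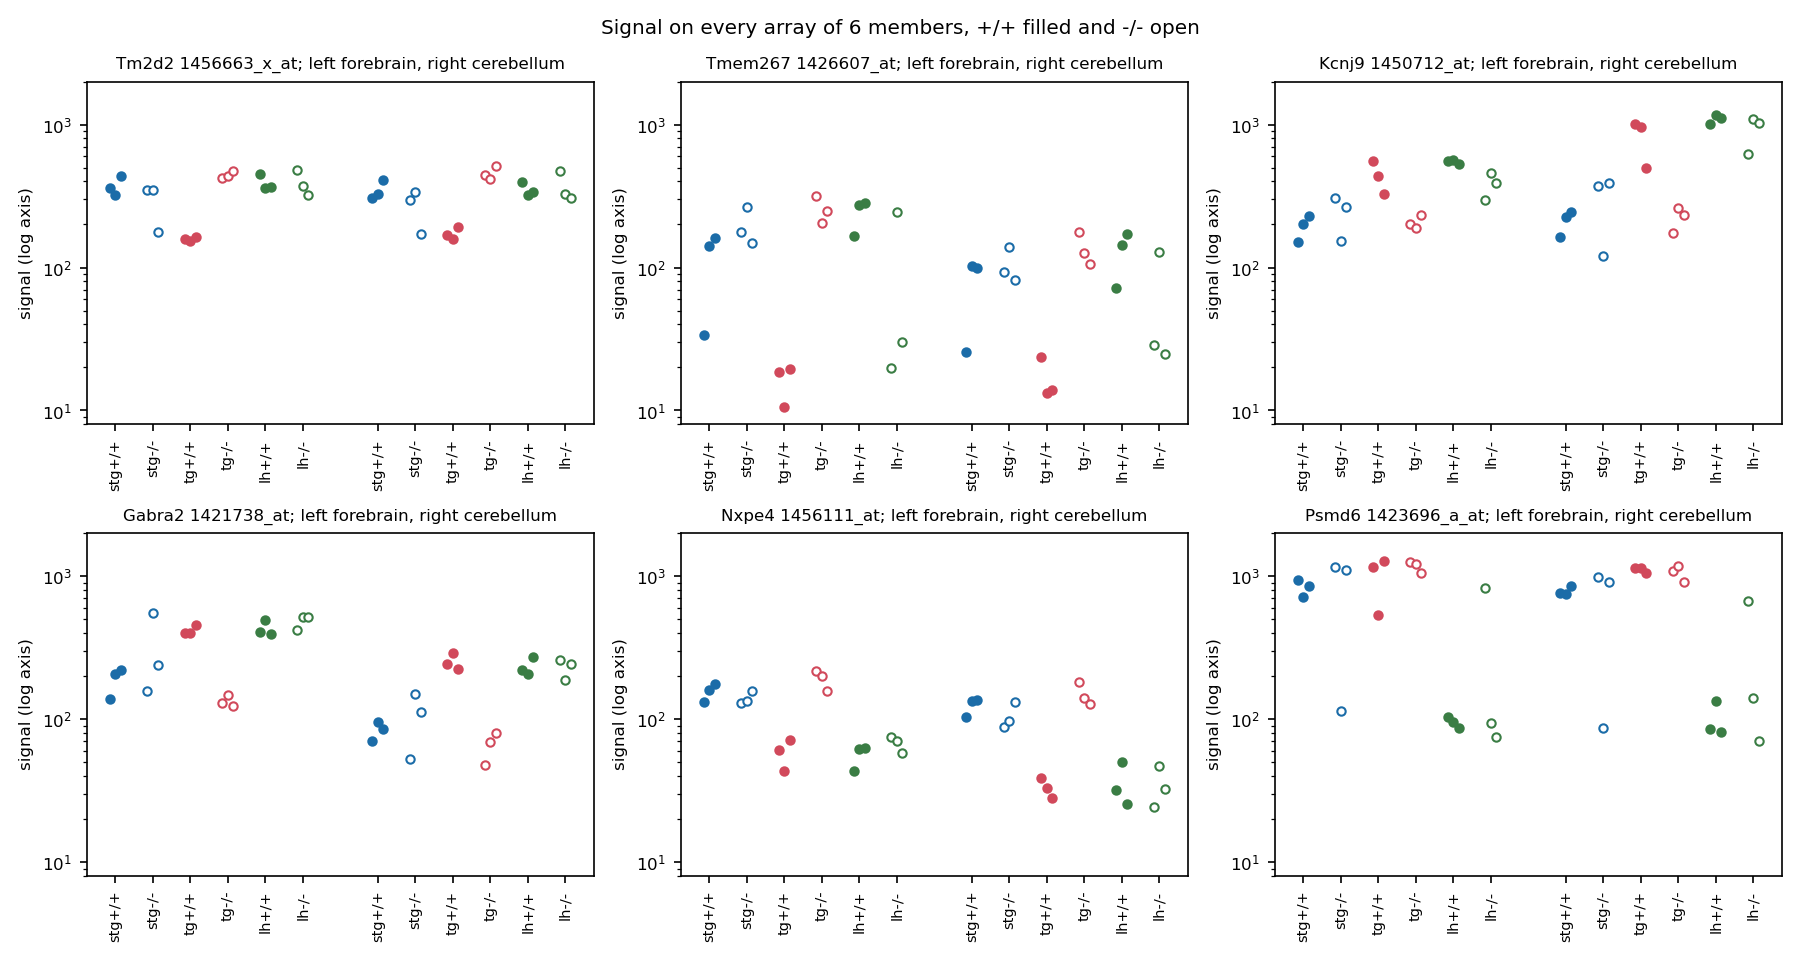
Signal on a log axis of 6 members on every array of the 6 line and genotype groups (x axis), forebrain on the left of each panel and cerebellum on the right; filled points are +/+, open points -/-, and colours mark the line. The tg groups lie apart from each other at Tm2d2, Tmem267, Kcnj9, Gabra2 and Nxpe4, and single stg-/- and lh-/- arrays cross over at Psmd6.

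Some large differences were not members, and at several of them arrays of 1 line differed from each other. With log2 differences of at least 2 in both tissues and the same sign, 20 pairings of a probe set with a comparison, from 11 genes, were not called in both; this list was drawn after the values were seen. The largest forebrain difference was at Prl, the pituitary hormone prolactin, at 5.69 for stg minus tg (adjusted p = 0.912), and in cerebellum it was 3.73 (adjusted p = 0.36). Pttg1, which encodes securin, a protein of cell division, had the largest smaller value of the 2 tissues. At 1438390_s_at it read 2317, 2519 and 2265 in stg+/+, 43.9, 83.5 and 84.1 in tg+/+ and 48.5, 1257 and 1205 in lh+/+ in forebrain. In cerebellum it read 1993, 2166 and 1918 in stg+/+, 44.5, 61.9 and 31.2 in tg+/+ and 54.3, 1093 and 1199 in lh+/+. The -/- arrays read 1192, 2392 and 2199 in stg-/-, 2338, 2403 and 2499 in tg-/- and 92.5, 1270 and 1287 in lh-/- in forebrain. Over both genotypes the forebrain signals fell near 3 levels, from 43.9 to 92.5, from 1192 to 1287 and from 2199 to 2519. The log2 difference of stg minus tg was 5.07 in forebrain (adjusted p = 0.151) and 5.42 in cerebellum (adjusted p = 0.0177).

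Ssbp2, a single-stranded DNA-binding protein, read 76.1, 7.63 and 1.05 in stg+/+, 5.44, 2.27 and 9.29 in tg+/+ and 201, 175 and 243 in lh+/+ at 1429951_at in forebrain, and 97.8, 17.5 and 10.5 in stg+/+, 9.8, 8.03 and 10.8 in tg+/+ and 191, 210 and 249 in lh+/+ in cerebellum. In tg-/- mice it read 193, 157 and 125 in forebrain, and 70.7, 198 and 208 in cerebellum. The lh arrays were high and the tg+/+ arrays low, with 1 stg+/+ array between them. Tg minus lh was -4.67 (adjusted p = 0.0548) in forebrain and -4.13 (adjusted p = 0.00331) in cerebellum.

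Paip1, a protein that binds the poly(A)-binding protein and aids translation, read 352, 148 and 158 in stg+/+, 365, 192 and 397 in tg+/+ and 177, 22.8 and 26.3 in lh+/+ at 1425521_at in forebrain, and 298, 206 and 215 in stg+/+, 407, 467 and 361 in tg+/+ and 177, 36.4 and 33.8 in lh+/+ in cerebellum. All tg-/- arrays were low, at 19.9, 28.5 and 16 in forebrain. Paip1 lies within 10 tested genes of Tmem267 on chromosome 13. Tg minus lh was 2.58 in forebrain (adjusted p = 0.252) and 2.69 in cerebellum (adjusted p = 0.0159). Pdxdc1, a decarboxylase-like protein, read 267, 16.1 and 20.8 in stg+/+, 214, 278 and 183 in tg+/+ and 255, 178 and 178 in lh+/+ at 1419327_at in forebrain, with 1 high and 2 low stg+/+ arrays. The tg-/- arrays read 2.62, 3.07 and 1.22. Stg minus tg was -2.18 (adjusted p = 0.825).

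Gene lists of 25 pathways and cell types held few called genes. Each gene stands by its brightest probe set. Of 45 genes known to vary among mouse strains, 27 were tested in forebrain and 26 in cerebellum. Counting any probe set of the gene, stg against lh gave Gabra2 and Kcnj9 in forebrain, and Gabra2, Kcnj9, Alad and Mndal in cerebellum. Stg against tg gave 0 in forebrain, and Gabra2, Kcnj9 and Pttg1 in cerebellum. Alad encodes an enzyme of haem synthesis and Mndal an interferon-inducible nuclear protein. The list's median for stg minus lh was 0.04 in forebrain and 0.07 in cerebellum, where those over all probe sets tested were -0.01 and 0.01. That list was written with earlier results of these data known.

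Of calcium channel subunits 19 were tested in forebrain and 17 in cerebellum, and 0 were called in any comparison by limma. At an unadjusted p under 0.05 there were 0, 1 and 2 in forebrain and 3, 4 and 8 in cerebellum for stg against tg, stg against lh and tg against lh, with medians from -0.11 to 0.07. Over all probe sets tested 5.24%, 5.0% and 5.35% had such a p in forebrain and 8.69%, 8.47% and 8.97% in cerebellum, so the 8 of 17 stood above that share; a test of the list was not made. Of glutamate receptors 20 and 19 were tested, and Grik1, a kainate receptor subunit, was called in cerebellum for stg minus lh and tg minus lh, where it was lower in lh. Activity-regulated genes had medians of -0.41 in forebrain and -0.33 in cerebellum for stg minus tg, with 0 of 24 and 0 of 21 called. At an unadjusted p under 0.05 there were 9 of 24 in forebrain, above the 5.24% over all probe sets, and 3 of 21 in cerebellum, beside 8.69% there.

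Few probe sets were called in a test of whether a line difference differed between the tissues. The fit over both tissues had no block for the mouse, since the labels do not tie a forebrain to a cerebellum, and its p-values take the arrays as independent. There 0 of 27022 probe sets were called for stg against tg (0.0%), 4 for stg against lh (0.0148%) and 3 for tg against lh (0.0111%). At an unadjusted p under 0.05 there were 867, 945 and 977. These are fewer than the 1415, 1351 and 1447 of 27022 (5.24%, 5.0% and 5.35%) in the forebrain fit. They also lie under the share of 0.05 expected if no line difference changed with the tissue. The test may thus call too few, and the small counts do not show that such differences are rare. Besides Stmn1 and Clmp, no autosomal gene was called. Fzd2, a Wnt receptor, came next for tg minus lh, at -0.40 in forebrain and 1.53 in cerebellum (adjusted p of the difference = 0.0702). For stg against tg the smallest adjusted p was 0.312, at Rora, Akap9, Stmn1 and P3h2. None of the members was called in this test, which does not show that their differences were equal in both tissues. The largest gaps among members were Tmem267 for tg minus lh, at -0.99, and Kcnj9 for stg minus lh, at 0.87 (forebrain minus cerebellum difference on the log2 scale, adjusted p = 0.999 and adjusted p = 1.0).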

How the data were processed

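RNA of forebrain and cerebellum from mice of 3 lines was measured on 36 1-colour oligonucleotide arrays, 3 in each of 12 groups, of which the 18 +/+ arrays were the main material. The authors deposited linear signal intensity values for 45101 probe sets. Their trimmed mean was 150 on every array, and how they were made is not stated in these sources. Of these probe sets, 33601 were placed on an autosome through the platform's gene table and RefSeq (GRCm38.p6), 1147 on X or Y, 932 had several symbols and 9211 none, and 64 were controls.

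The deposited intensity values were turned into log2(signal + 2.98), where the constant is the 10th percentile of all values. The log2 medians of the +/+ arrays spanned 0.255, so arrays were not normalized again. Those whose mean exceeded the 40th percentile were kept, 27022 per fit. Each tissue's 9 +/+ arrays were fitted with limma 3.58.1 (R 4.3.3, empirical Bayes with an intensity trend), with Benjamini-Hochberg adjustment over all probe sets tested, and tables were joined with pandas 2.3.3. A second fit took the -/- arrays, and a fit over both tissues gave the difference between tissues. The scripts were tested on simulated data. Array number, not read depth, limits precision.

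Genes were named by the 8 leading differences in each direction for each pair of lines. These were taken among members whose arrays did not overlap between the lines in either tissue. All members met this condition, and those not leading were added so that each is given. The members, lists and tests were chosen with earlier results of these data known. Sex was read from Xist and Eif2s3y. Groups came from the labels. Cerebellum titles carry replicate numbers, and forebrain titles, but for an stg-/- title, do not. Alternatives were filters, quantile normalization, a constant of 1, no trend, all arrays of a tissue, array weights, blocks, sex, and arrays left out.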

Additional observations from a re-analysis of the deposited data

Results flagged for a closer look

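The difference between lines changed with the tissue at 2 autosomal genes by the test of that difference itself (limma, adjusted over all 27022 probe sets). Stmn1 encodes stathmin, which binds tubulin and promotes the disassembly of microtubules. At 1415849_s_at stg minus lh was -0.04 in forebrain and -1.04 in cerebellum, a difference between tissues of 1.0 on the log2 scale (SE 0.14, adjusted p = 0.013). Another Stmn1 probe set, 1448113_at, gave 1.17 with adjusted p = 1.0.

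Clmp encodes a cell adhesion molecule of the immunoglobulin family. At 1448250_at stg minus lh was 0.66 in forebrain and -0.53 in cerebellum, a difference of 1.19 (SE 0.18, adjusted p = 0.0161). Tg minus lh was 1.02 and -0.51 there, a difference of 1.54 (SE 0.18, adjusted p = 0.000849). Both comparisons use the same lh+/+ arrays. Another Clmp probe set, 1448251_at, gave 0.81 (adjusted p = 1.0) for stg minus lh and 1.18 (adjusted p = 0.338) for tg minus lh.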

How the results depend on the processing

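Of 1096 values of the members' differences under alternatives, 909 kept direction and call, 187 kept the direction only, and 0 turned. Each of these values is for 1 tissue alone, and calls in both tissues were kept less often. Of the 18 pairings for tg against lh, only Rpgrip1, Clasp2 at 1424836_a_at and Tm2d2 kept both calls throughout. That covers 11 settings and each array left out in turn. For stg a like count is not given, since 1 setting left 1 stg+/+ forebrain array. Counts are given as stg against tg, stg against lh and tg against lh. The probe sets called in both tissues (2, 9 and 18) numbered 0, 4 and 7 with no intensity trend, 7, 19 and 34 with all arrays of the tissue in the fit (1, 6 and 15 of the members among them), 9, 28 and 45 with array weights (all members among them), and 0, 5 and 12 with sex as a term. Without the 3 arrays with pituitary transcripts they were 12 for tg against lh (10 members). That setting left 1 stg+/+ forebrain array, so counts for stg are not given. They were 4 for stg against tg after quantile normalization and 10 for tg against lh with the filter at the 60th percentile. With single arrays left out they ran from 1 to 5, 4 to 12 and 9 to 26.

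In forebrain the counts of 4, 25 and 42 became 0, 10 and 23 with no trend, 12, 56 and 74 with all arrays, 15, 80 and 114 with array weights, and 0, 9 and 25 with sex. The last 2 became 14 and 22 with the 60th percentile filter, and the last became 22 without the pituitary arrays. The forebrain counts ran from 2 to 9, 8 to 57 and 21 to 50 with single arrays left out. In cerebellum the 43, 105 and 136 became 8, 50 and 64 with no trend. With array weights 43 became 212 and 136 became 228. With sex the first 2 became 12 and 68, and 105 became 199 with the run of records as a block. They ran from 13 to 65, 54 to 100 and 53 to 144. The numbers in the cerebellum titles pair nothing by the labels, and same-numbered arrays of separate lines correlated from -0.087 to 0.227. With the replicate block the cerebellum counts were 74, 171 and 209, and the same 2, 9 and 18 were called in both tissues.

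The counts shared with -/- mice (1, 3 and 10) became 0, 0 and 2 with no trend, 2 for stg against tg after quantile normalization and 6 for tg against lh with the 60th percentile filter. The tissue difference for stg against tg gave 1 call with no filter. The cause of these shifts was not tested. With 3 arrays a group, few small differences could be called, and weak signals are compressed by the added constant.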
